A study of Mus musculus with 6 samples.

Results

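Mitochondrial ribosomal protein genes were examined in RNA-seq libraries of regulatory T (Treg) cells from 2 organs of young mice. The genes were taken by name, as every symbol of the count table made of Mrpl or Mrps, a number and optional letters, which gave 76 of its 23366 gene symbols. All 76 passed the filter on low counts, against 11716 genes in all. The cells were sorted by flow cytometry as CD4+ and GFP+ from mice 12 days old whose Foxp3 gene carries a green fluorescent protein, so that GFP marks cells expressing the transcription factor that defines Treg cells. There were 3 liver libraries and 3 spleen libraries. Every library came from animals of this same Foxp3GFP knock-in genotype, and the labels give no other allele, no treatment, and no statement on pooling of animals. The comparison was liver minus spleen. Nothing in the labels says that libraries of a tissue came from separate animals, and a p-value here therefore reflects only how these libraries scatter, which may be technical.

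Mitochondria carry their own ribosome, which translates the few messenger RNAs made from mitochondrial DNA, all of them for core parts of the respiratory chain and ATP synthase. Its RNA comes from the mitochondrial genome, while its proteins are encoded in the nucleus, made in the cytosol and imported, so that the 2 genomes have to supply the particle together. Genes named Mrpl belong to the large subunit, which forms the peptide bond, and most genes named Mrps to the small subunit, which decodes the message. Part of these proteins have counterparts in bacterial ribosomes and the others are found only in mitochondria. Treg cells are known to rely on mitochondrial respiration more than many effector T cells do.

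The promoter sequence of 67 of the 76 genes was at hand in RefSeq (GRCm38.p6); the genes without one were Mrpl13, Mrpl15, Mrpl19, Mrpl38, Mrpl4, Mrpl54, Mrps28, Mrps34 and Mrps35. The counts were made on the build mm9, so the positions printed here belong to the sequences and not to the counts. The 100 bases before the start site are shown for 6 genes that recur below: Mrpl14, which passed the test toward liver, Mrpl34 and Mrpl9, which had the next smallest p values in that direction, Mrps2 and Mrps22, which had higher values in each spleen library than in any liver library, and Mrps18a, whose name and place differ. Capitals mark letters of the ETS family motif CCGGAAG or the NRF1 motif (GCGCA followed at once by its reverse complement), and windows without capitals hold neither in this stretch.
Mrpl14 (chr17:45686249-45686348, plus strand): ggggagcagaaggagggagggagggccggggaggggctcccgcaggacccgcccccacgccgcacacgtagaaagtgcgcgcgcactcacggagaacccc
Mrpl34 (chr8:71464826-71464925, plus strand): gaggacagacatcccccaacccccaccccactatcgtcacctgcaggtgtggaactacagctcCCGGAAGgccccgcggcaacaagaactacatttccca
Mrpl9 (chr3:94443236-94443335, plus strand): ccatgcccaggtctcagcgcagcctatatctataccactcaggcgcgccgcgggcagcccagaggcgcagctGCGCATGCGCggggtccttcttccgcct
Mrps2 (chr2:28467966-28468065, plus strand): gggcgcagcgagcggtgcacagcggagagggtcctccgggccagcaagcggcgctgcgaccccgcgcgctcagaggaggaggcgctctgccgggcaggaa
Mrps22 (chr9:98601680-98601779, minus strand): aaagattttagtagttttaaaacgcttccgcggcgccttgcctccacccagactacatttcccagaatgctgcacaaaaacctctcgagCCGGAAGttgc
Mrps18a (chr17:46110904-46111003, plus strand): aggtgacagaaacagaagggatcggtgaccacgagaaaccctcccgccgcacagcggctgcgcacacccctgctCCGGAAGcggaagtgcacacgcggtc

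One library, spleen 1, was shallow, with 1199410 counts in genes against 8437055 to 11408960 in the other 5, and both genes that passed the test below also passed without it. The mitochondrial ribosomal protein genes took 0.198% to 0.229% of the counts of a library. The lowest, median and highest of the 76 had 5, 30.5 and 115 reads in spleen 1, against 45 to 74, 189 to 281 and 711 to 1000 reads in the other libraries. Foxp3 stood at 1266 ± 58.4 CPM in liver against 1160 ± 57.6 in spleen (SD, n = 3 each), where CPM is the count of a gene rescaled to a library of fixed size. Markers of Treg cells were not all level. Of the 7 tested, 2 passed the edgeR test toward liver, 1 passed toward spleen, and 4, with Foxp3 among them, did not pass. Their log2 fold changes ran from -0.60 to 0.89. Transcripts of other cells differed between the tissues: 8 of 8 tested erythroid markers, 10 of 12 granulocyte markers, 8 of 8 macrophage markers and 4 of 8 B cell markers were higher in spleen, and 4 of 7 tested NK and CD8 T cell markers were higher in liver with 1 higher in spleen. The summed erythroid level was 11.8 to 17.2 CPM in liver against 211 to 291 in spleen, with Hbb-b1, Hbb-b2, Hba-a1 and Hba-a2 at 0 in all libraries; the granulocyte sum was 278 to 312 and 502 to 852 CPM, the macrophage sum 65.4 to 72.8 and 122 to 196 CPM, the B cell sum 132 to 163 and 222 to 310 CPM, and the NK and CD8 sum 88.1 to 112 and 41.1 to 50.8 CPM. Of 9 hepatocyte markers 3 were tested, 1 higher in liver and 1 higher in spleen, with sums of 14.8 to 22.1 CPM in liver against 18.2 to 25.0 in spleen and with Alb, Ttr and Fgb at 0 in all spleen libraries. Of 16 cell cycle genes 14 were higher in liver, where they summed to 2816 to 3064 CPM against 1405 to 1721 CPM in spleen. The part of these transcripts in the results below was not tested. In bulk libraries fewer cells of a type and less RNA per cell cannot be told apart.

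As a set the mitochondrial ribosomal protein genes stood at almost the same level in the 2 tissues. Their summed level was 2037, 1979 and 2327 CPM in liver 1, 2 and 3, and 2320, 2035 and 2044 CPM in spleen 1, 2 and 3. The tissues overlapped, with liver 3 and spleen 1 the highest and the other 4 libraries close together. The means were 2114 ± 186 CPM in liver against 2133 ± 162 in spleen (SD, n = 3 each), a log2 ratio of -0.013. Genes of the large subunit summed to 1430 ± 137 CPM in liver against 1437 ± 133 in spleen, and genes of the small subunit to 668 ± 49.9 CPM and 677 ± 26.1 CPM. Large over small was 2.14 ± 0.0678 in liver and 2.12 ± 0.112 in spleen, so the balance of the 2 subunits' transcripts differed by less than the spread between libraries. The stacked bars of the summed level show this library by library.

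**Figure D1:**
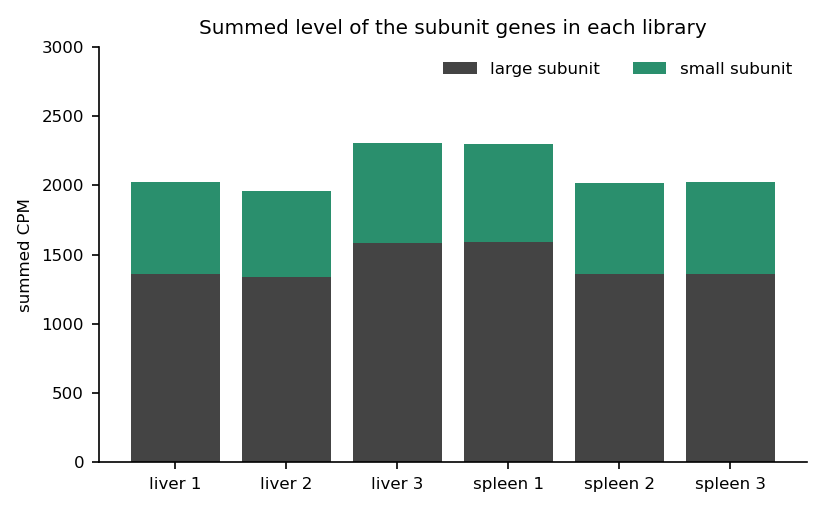
Summed CPM (vertical axis, from 0) of the large subunit genes and the small subunit genes in each of the 6 libraries (horizontal axis), stacked; Mrps36 is left out. Liver 3 and spleen 1 are the tallest bars, and the other libraries lie close together.

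Of the 76 genes, 2 were higher in liver, 0 were higher in spleen and 74 did not pass edgeR's quasi-likelihood test at an adjusted p of 0.05. Over all 11716 genes tested, 16.2% passed the test, 9.28% higher in liver and 6.9% higher in spleen, so the share called among the mitochondrial ribosomal proteins, 2.63%, was below the background. At an unadjusted p under 0.05 there were 5 of the 76, 1 of them (Mrps2) toward spleen, against 28.3% of all genes tested. DESeq2 called the same 2 genes, and limma-voom 4, adding Mrpl34 toward liver and Mrps18b toward spleen. The log2 fold changes ran from -0.43 to 0.64, with 38 of 76 above 0 and a median of -0.0060, beside a median of -0.0051 over all genes tested. Their standard deviation across genes was 0.24, while it was 0.69 over all genes tested. The median standard error (SE) of a single gene was 0.19, close to that spread. The 95% interval of the difference lay inside a 2-fold change in either direction for 74 of the 76 genes, the exceptions being Mrpl14 and Mrpl47, and inside a 1.5-fold change for 41. For 8 of the 76, or 10.5%, the liver range and the spleen range were apart, beside 32.9% of all genes tested. The plot of all fold changes with their intervals shows a slope of values through 0 with 2 filled points at its upper end.

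**Figure D2:**
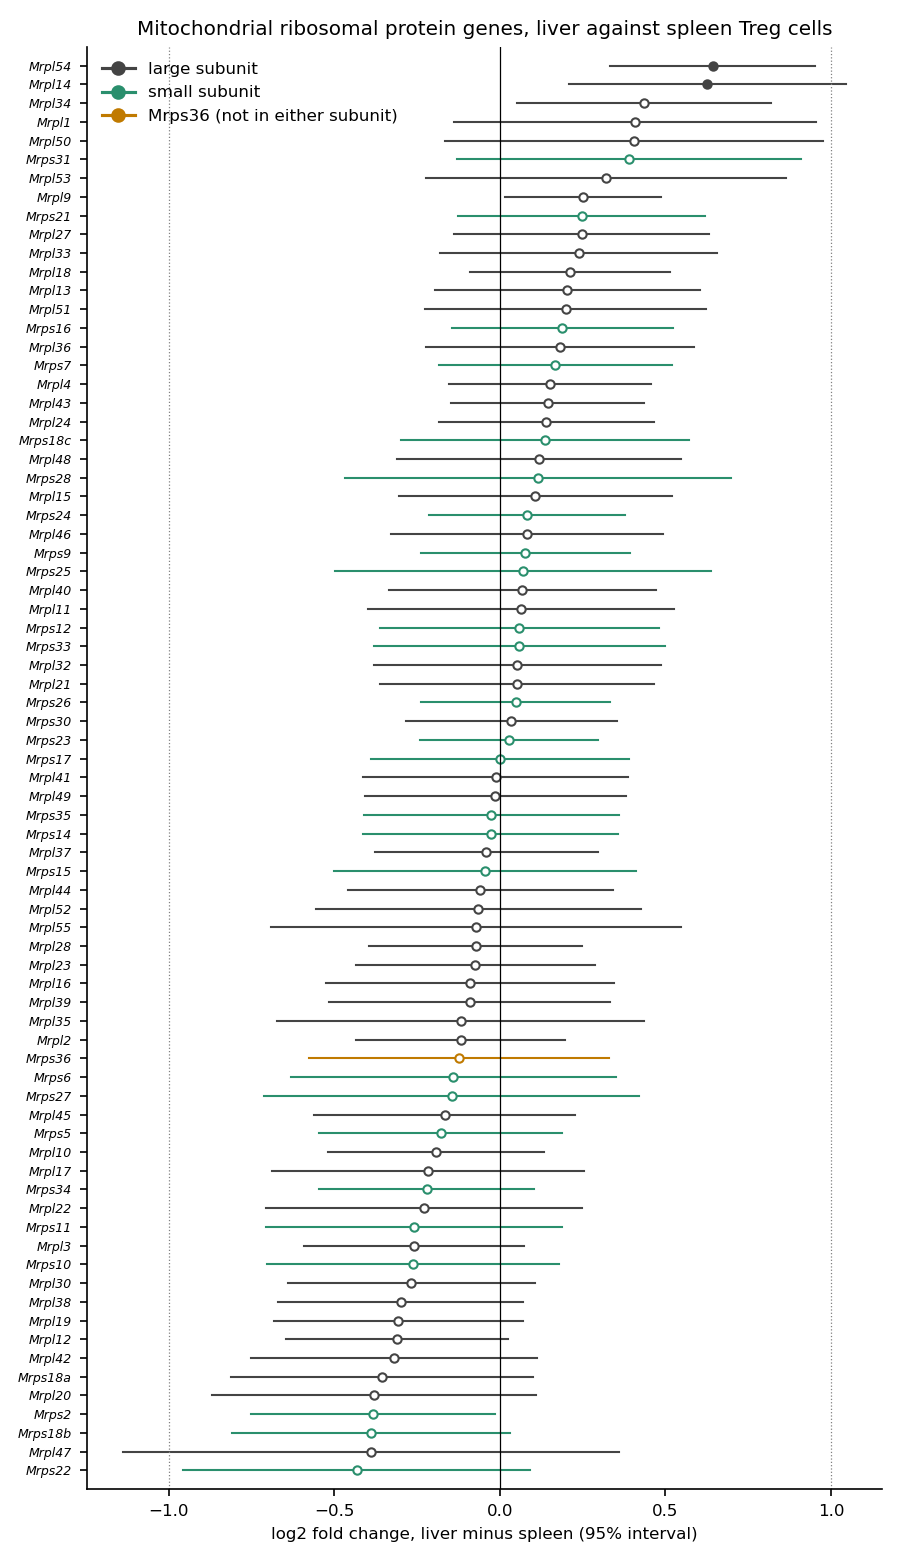
Log2 fold change, liver minus spleen, with its 95% interval (horizontal axis) for each of the 76 genes (vertical axis, sorted), coloured by the subunit that holds the protein; filled points passed the test and dotted lines mark a 2-fold change. Only Mrpl54 and Mrpl14 are filled, and 38 of the 76 points lie above 0.

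Both genes that passed encode large subunit proteins. Mrpl54, a protein without a bacterial counterpart, was at 46.8, 43.1 and 45.8 CPM in the liver libraries and at 30.1, 31.1 and 26.3 CPM in the spleen libraries. Each liver library was above each spleen library, by a wide margin and with little spread inside a tissue. The means were 45.2 ± 1.91 and 29.2 ± 2.53 CPM (SD over 3 libraries each), and the log2 fold change was 0.64 ± 0.15 (SE, edgeR adjusted p = 0.00498). Without spleen 3 the edgeR adjusted p was 0.0576 at a log2 fold change of 0.55. With all libraries thinned to the depth of spleen 1 it was 0.0915 at 0.60.

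Mrpl14, which sits at the face of the large subunit that meets the small subunit, was at 20.6, 24.9 and 31.4 CPM in liver against 18.1, 16.1 and 16.7 in spleen. The tissues did not overlap, but the gap between liver 1 and spleen 1 was small and the liver libraries were spread. The log2 fold change was 0.63 ± 0.20 (SE, edgeR adjusted p = 0.0388). The gene missed the threshold without liver 2 (edgeR adjusted p = 0.094), liver 3 (0.167), spleen 2 (0.167) or spleen 3 (0.121), with upper-quartile scaling (0.0561) and at equal depth (0.438, at a log2 fold change of 0.37). Malsu1, an assembly factor known to bind Mrpl14 protein on the large subunit, was at 14.8 CPM in liver against 13.7 in spleen, with a log2 fold change of 0.10 ± 0.21 (edgeR adjusted p = 0.816).

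The next genes toward liver did not pass. Mrpl34, a small protein with a bacterial counterpart, was at 25.5, 31.5 and 36.4 CPM in liver against 26.7, 20.7 and 24.0 in spleen, so that liver 1 fell below spleen 1 (log2 fold change 0.43 ± 0.18, edgeR adjusted p = 0.121). Mrpl9 had the highest mean CPM of the 76, at 85.5, 83.1 and 92.6 CPM in liver against 65.4, 72.9 and 77.3 in spleen. Its libraries did not overlap, and its log2 fold change was 0.25 ± 0.11 with an edgeR adjusted p of 0.147. Mrps31, Mrpl1, Mrpl50 and Mrpl18 were the others with the smallest p values in this direction, with log2 fold changes of 0.21 to 0.41 and edgeR adjusted p values of 0.327 to 0.363. For Mrpl50 and Mrps31 spleen 1 was the lowest library, at 5.16 CPM for each gene, which rested on 6 reads.

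Toward spleen no gene passed, and 5 of the 76 had all 3 spleen libraries above all 3 liver libraries: Mrps2, Mrps22, Mrps34, Mrpl12 and Mrpl19. Values in parentheses beside the levels are log2 fold changes of liver minus spleen ± SE. Mrps2, the counterpart of bacterial S2, was at 20.0, 21.1 and 20.3 CPM in liver against 31.0, 27.7 and 23.8 in spleen (-0.38 ± 0.18, edgeR adjusted p = 0.157). The liver libraries of Mrps2 were nearly level and the spleen libraries spread upward. Mrps22, a small subunit protein found only in mitochondria, was at 8.78, 8.80 and 10.5 CPM in liver against 17.2, 12.0 and 11.5 in spleen, with spleen 1 far above the rest (-0.43 ± 0.25, edgeR adjusted p = 0.276). Mrps34 was at 28.5, 34.7 and 33.5 CPM in liver against 43.0, 35.4 and 37.3 in spleen (-0.22 ± 0.15, edgeR adjusted p = 0.378). Mrpl19 was at 20.4, 17.3 and 21.9 CPM in liver against 22.4, 24.9 and 25.2 in spleen (-0.31 ± 0.18, edgeR adjusted p = 0.281). In Mrps34 and Mrpl19 the nearest libraries of the 2 tissues lay within 1 CPM of each other. Mrpl38 (-0.30 ± 0.18) and Mrpl3 (-0.26 ± 0.16) followed, with edgeR adjusted p values of 0.287 and 0.305 and overlapping libraries. The plot of levels per library shows 4 genes of each direction.

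**Figure D3:**
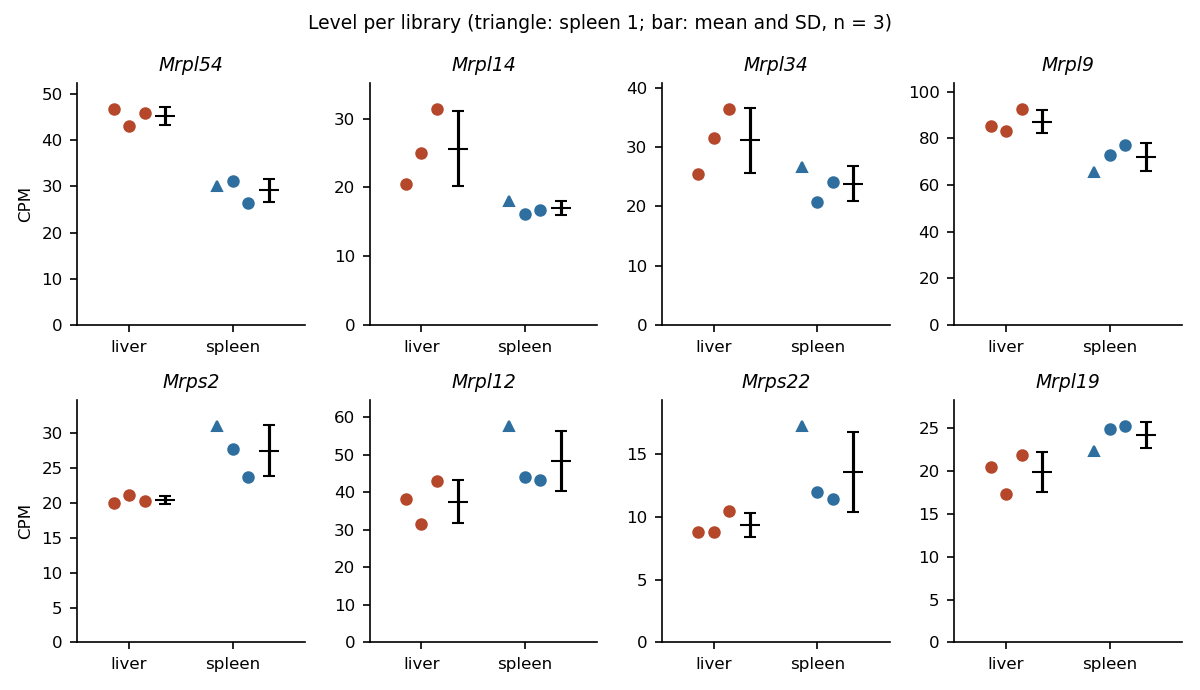
CPM (vertical axis, from 0) in each liver and spleen library for Mrpl54, Mrpl14, Mrpl34 and Mrpl9 (upper row) and Mrps2, Mrpl12, Mrps22 and Mrpl19 (lower row); triangles mark the shallow library spleen 1 and black bars the mean and SD of 3 libraries. The tissues do not overlap in 7 of the 8 panels, Mrpl34 being the exception, and Mrpl54 has the clearest gap.

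The stalk of the large subunit, which recruits translation factors, is built on Mrpl10 and Mrpl11 and carries copies of Mrpl12, a protein also known to bind the mitochondrial RNA polymerase. Mrpl12 was at 38.1, 31.5 and 43.0 CPM in liver against 57.7, 44.2 and 43.4 in spleen. Each spleen library was above each liver library, but liver 3 and spleen 3 were almost equal (-0.31 ± 0.16, edgeR adjusted p = 0.213). Mrpl10 was at 61.3, 56.5 and 74.8 CPM in liver against 99.0, 70.6 and 62.6 in spleen, with overlap (-0.19 ± 0.15, edgeR adjusted p = 0.456). Mrpl11 was at 14.5 ± 2.1 CPM in liver against 13.5 ± 1.96 in spleen (0.064 ± 0.22, edgeR adjusted p = 0.889), and its sign depended on the setting.

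Several genes are not where their names put them. Mrps18a, Mrps18b and Mrps18c are relatives of the bacterial small subunit protein S18, but the product of Mrps18a is built into the large subunit, as is that of Mrps30. Mrps18a was at 20.3, 15.3 and 19.7 CPM in liver against 35.3, 21.8 and 20.3 in spleen (-0.36 ± 0.22, edgeR adjusted p = 0.306), and spleen 1 stood apart from the other 5 libraries. Mrps18b was at 17.0, 13.6 and 16.4 CPM in liver against 15.5, 21.2 and 21.9 in spleen, here with spleen 1 among the liver values (-0.39 ± 0.20, edgeR adjusted p = 0.214). It passed the test with limma-voom and sample quality weights (limma adjusted p = 0.0447). Mrps18c was at 19.1 ± 3.09 CPM in liver against 18.4 ± 3.46 in spleen (0.14 ± 0.21, edgeR adjusted p = 0.720). The differences between the 3 relatives were not tested. Mrps30 was at 42.6 ± 2.31 and 43.5 ± 8.23 CPM (0.035 ± 0.15, edgeR adjusted p = 0.915), with a sign that depended on the setting. Mrps36, whose product has been reassigned to the oxoglutarate dehydrogenase complex, was at 16.0 ± 2.52 and 18.5 ± 3.71 CPM (-0.12 ± 0.22, edgeR adjusted p = 0.766).

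By subunit, 2 of 49 large subunit genes and 0 of 26 small subunit genes passed; the subunits' median log2 fold changes were -0.012 and 0.013, and at an unadjusted p under 0.05 there were 4 and 1. Neither DESeq2 nor limma-voom called a small subunit gene higher in liver, and limma-voom called Mrps18b higher in spleen. By origin, as the genes were classed here, 1 of 46 with a bacterial counterpart and 1 of 27 found only in mitochondria passed. Mrpl55 (log2 fold change -0.072, not past the test) was counted among the 46, though its protein has no known bacterial counterpart. The medians of the classes, 0.026 and 0.027, rest on that placing. These splits were not tested against each other.

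Levels per transcript length spanned a wide range. A protein of the ribosome is present once per particle, apart from a few in several copies, yet the level per kilobase (CPM divided by the median length of the gene's protein-coding transcripts) ran from 1.76 for Mrps25 to 122 for Mrpl52, a ratio of 69.3, with a median of 18.9. By the mean of the 2 tissues on this scale the highest were Mrpl52, at 113 ± 33.2 CPM per kilobase in liver and 132 ± 58.8 in spleen, then Mrps21 at 79.9 ± 11 and 71.7 ± 16.8, Mrpl54 at 74.9 ± 3.16 and 48.3 ± 4.18, Mrpl10 at 52.4 ± 7.75 and 63.1 ± 15.6, and Mrpl33 at 62.0 ± 17.8 and 52.9 ± 3.04 (SD, n = 3 each). Mrpl52 rested on an uneven set of libraries, at 41.5, 41.0 and 66.6 CPM in liver against 87.8, 46.1 and 40.3 in spleen. Mrpl52 and Mrps21 overlapped within their SD in both tissues, as did Mrpl10 and Mrpl33, and at the other end Mrps25 and Mrpl47. The order within a tissue differed: Mrpl30, Mrpl20 and Mrpl4 stood above Mrpl33 and Mrpl54 in spleen, and Mrpl4 and Mrpl9 above Mrpl10 in liver. By the mean of both tissues the lowest were Mrps25, at 1.79 ± 0.298 and 1.74 ± 0.437 CPM per kilobase, Mrpl47 at 1.49 ± 0.354 and 2.18 ± 0.788, Mrpl35 at 3.16 ± 0.624 and 3.83 ± 1.33, Mrpl19 at 3.98 ± 0.463 and 4.84 ± 0.313 and Mrpl1 at 4.87 ± 0.725 and 4.23 ± 1.83. All 5 have long annotated transcripts, of 3364 to 6073 bases against a median of 1221 over the 76, and a gene whose cells use a shorter transcript would be placed too low on this scale. The order of the genes was nearly the same in both tissues: Pearson's r of the log2 level per kilobase was 0.98 and Spearman's rho 0.97 over the 76 genes, which share libraries and the same lengths on both axes. Before division by length, the 10 highest genes held 26.8% of the summed CPM.

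**Figure D4:**
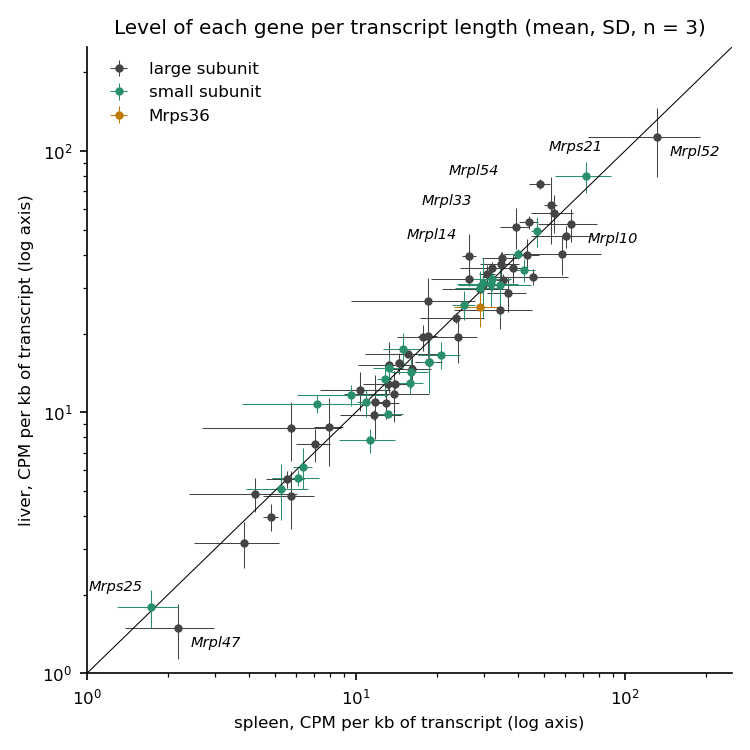
Level of each of the 76 genes in spleen (horizontal axis) and liver (vertical axis) as CPM per kilobase of transcript, both on log axes, as mean and SD of 3 libraries; the line marks equal levels. The points follow the line from Mrps25 and Mrpl47 at the lower end to Mrpl52 at the upper end, with Mrpl54 and Mrpl14 above it.

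Subunit proteins with other names gave no call. Of 7 such genes, 0 passed in either direction with edgeR, 1 at an unadjusted p under 0.05, and the median log2 fold change was -0.25. That 1 gene was Ptcd3, an RNA-binding repeat protein of the small subunit, at 40.2, 43.7 and 41.9 CPM in liver against 49.1, 51.2 and 58.5 in spleen (-0.36 ± 0.13, edgeR adjusted p = 0.081). Each spleen library was above each liver library, and the gene passed with upper-quartile scaling, with limma-voom and without spleen 1. Dap3, a GTP-binding small subunit protein, was at 108 ± 17.1 and 106 ± 0.897 CPM (0.026 ± 0.12, edgeR adjusted p = 0.917). Gadd45gip1, at the exit of the peptide tunnel, was at 32.7 ± 5.87 and 42.1 ± 13.5 CPM (-0.25 ± 0.20, edgeR adjusted p = 0.449). Oxa1l, the inner membrane insertase that receives the new proteins, was listed with them and was at 94.1 ± 2.93 and 86.0 ± 2.48 CPM (0.13 ± 0.10, edgeR adjusted p = 0.434). With Oxa1l included, the median of the 8 genes was -0.20. Without the shallow library spleen 1 that median was -0.023, with 4 of 8 above 0.

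Calls among the genes that build and serve this ribosome are to be read beside the 6.9% of all genes tested that were higher in spleen. Of 15 genes listed as mitochondrial translation factors 0 passed in either direction with edgeR. At an unadjusted p under 0.05 there were 2, and limma-voom called 1. The median log2 fold change was -0.072, which was -0.021 without liver 2, -0.038 without spleen 2 and -0.15 without spleen 3. The RNA-binding protein gene Lrpprc (-0.39 ± 0.15, edgeR adjusted p = 0.0998), Mettl17 (-0.28 ± 0.13) and the elongation factor gene Gfm1 (-0.26 ± 0.15) had the smallest p values. Of 30 genes listed as assembly factors 4 were higher in spleen, 0 higher in liver and 26 did not pass (median -0.10). The share called, 13.3%, was above the 6.9% but was not tested against it. The largest of the 4 was Mdn1 (-1.04 ± 0.10, edgeR adjusted p = 1.49e-06), whose product matures the cytosolic and not the mitochondrial large subunit. Without Mdn1 the count was 3 of 29, or 10.3%. The other 3 were Tbrg4, a mitochondrial RNA-binding protein gene, at 61.0 ± 6.12 CPM in liver against 84.4 ± 6.37 in spleen (-0.46 ± 0.12, edgeR adjusted p = 0.0142), the matrix protein gene C1qbp (-0.46 ± 0.14, edgeR adjusted p = 0.0307) and Wbscr16 (-0.62 ± 0.20, edgeR adjusted p = 0.0409). With Mdn1 set aside, the count of assembly factors higher in spleen was 0 of 29 without liver 2 or without spleen 3, 1 of 29 without spleen 2, 2 of 29 without liver 1 and 0 of 24 tested at equal depth.

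Of 22 genes listed for charging the transfer RNAs of mitochondrial translation, 1 was higher in spleen, 0 higher in liver and 21 did not pass (median -0.16). The list includes Gatc, Qrsl1 and Pet112, subunits of an amidotransferase that corrects a mischarged transfer RNA; without them 1 of 19 aminoacyl-tRNA synthetase genes was higher in spleen (median -0.14). It was Tars2, for threonine, at 98.2 ± 9.29 CPM in liver against 129 ± 10.8 in spleen (-0.40 ± 0.11, edgeR adjusted p = 0.0163). That call was lost without liver 1, liver 2 or spleen 3. Vars2 (-0.39 ± 0.13, edgeR adjusted p = 0.0501) and Rars2 (-0.47 ± 0.20, edgeR adjusted p = 0.138) did not pass. Of 11 genes of mitochondrial transcription and DNA maintenance 1 was higher in spleen, Polrmt, the mitochondrial RNA polymerase, at 48.7, 54.8 and 51.7 CPM in liver against 68.0, 68.0 and 66.7 in spleen (-0.38 ± 0.12, edgeR adjusted p = 0.0381). Its libraries did not overlap, and the call held without spleen 1 and was lost when any other single library was left out. Peo1, the mitochondrial helicase (-0.43 ± 0.22, edgeR adjusted p = 0.212), Polg2 (0.38 ± 0.19, edgeR adjusted p = 0.217) and Tfam, which packs mitochondrial DNA (-0.080 ± 0.15, edgeR adjusted p = 0.785), did not pass, and the sign of Tfam turned without spleen 1.

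Of 9 tested regulators of mitochondrial biogenesis 2 were higher in spleen, 0 were higher in liver and 7 did not pass. Over all genes tested, edgeR called 6.9% higher in spleen and 9.28% higher in liver. With limma-voom 2 of the regulators were also called higher in liver. Pprc1, a coactivator of the PGC-1 family, was at 32.0, 34.4 and 29.8 CPM in liver against 66.3, 72.4 and 75.2 in spleen (-1.17 ± 0.13, edgeR adjusted p = 5.79e-06). Myc, a transcription factor that drives ribosome production, was at 78.9, 72.6 and 65.3 CPM in liver against 120, 150 and 151 in spleen (-0.99 ± 0.11, edgeR adjusted p = 7.37e-06). In both genes every spleen library was far above every liver library. Nrf1, the ETS factor Gabpa with its partner Gabpb1, and Yy1, whose motifs were searched in the promoters, did not pass in the main fit. Among 13 alternative settings Gabpb1 passed in 3 and Nrf1 in 1. Nrf1 was at 83.3 ± 2.99 CPM in liver against 70.3 ± 1.60 in spleen (0.25 ± 0.11, edgeR adjusted p = 0.137), Gabpa at 78.1 ± 0.993 and 64.9 ± 9.31 CPM (0.22 ± 0.12, edgeR adjusted p = 0.243) and Gabpb1 at 66.4 ± 2.76 and 47.8 ± 9.49 CPM (0.41 ± 0.14, edgeR adjusted p = 0.0502). In these 3 genes each liver library was above each spleen library. Yy1 was at 139 ± 11.3 and 141 ± 14.2 CPM, with a log2 fold change of -1.0e-04 ± 0.10 whose sign depended on the setting, and Ppargc1b at 7.79 ± 0.703 and 10.1 ± 2.25 CPM (-0.46 ± 0.26, edgeR adjusted p = 0.262).

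Larger sets that share the organelle or the function gave a frame for these values. Of 77 cytosolic ribosomal protein genes 1 was higher in spleen, Rpl31 (-0.32 ± 0.10, edgeR adjusted p = 0.0305), with a median of -0.16 and 9 of 77 log2 fold changes above 0, against 38 of 76 in the mitochondrial set. Without the shallow library spleen 1 the median of the cytosolic set was 0.0032 with 40 of 77 above 0, and with any other library left out it was between -0.24 and -0.090. Rpl31 missed the threshold in each of the 6 fits with 1 library fewer. Rps7 (edgeR adjusted p = 0.0888) did not pass. Of 78 nuclear genes of oxidative phosphorylation 1 was higher in liver, the complex II gene Sdhd (0.47 ± 0.12, edgeR adjusted p = 0.010). That call was lost without spleen 2 and at equal depth. The complexes of this set other than complex II take up products of the mitochondrial ribosome. The set had a median of 0.12, with 58 of 78 above 0. That median was 0.023 without liver 3, 0.053 without spleen 2, 0.070 without spleen 3 and 0.19 without spleen 1. Ndufb5 (0.41 ± 0.14, edgeR adjusted p = 0.0547) and Sdhb (0.32 ± 0.12, edgeR adjusted p = 0.0755) came next. Of 23 import genes 1 was higher in spleen, the channel gene Tomm40 (-0.47 ± 0.12, edgeR adjusted p = 0.00769; lost without spleen 2), with a median of -0.029; Timm9 and Timm44 did not pass (edgeR adjusted p = 0.174 and 0.203). The share called was 1.30%, 1.28% and 4.35% in these sets, all below the 16.2% of all genes tested. The differences between the sets were not tested. The plot of fold changes by list sets them beside the cell cycle genes, whose median was 1.37, and Mki67, a proliferation marker, was itself at 888 ± 28.1 CPM in liver against 345 ± 28.1 in spleen (1.37 ± 0.10, edgeR adjusted p = 4.99e-08).

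**Figure D5:**
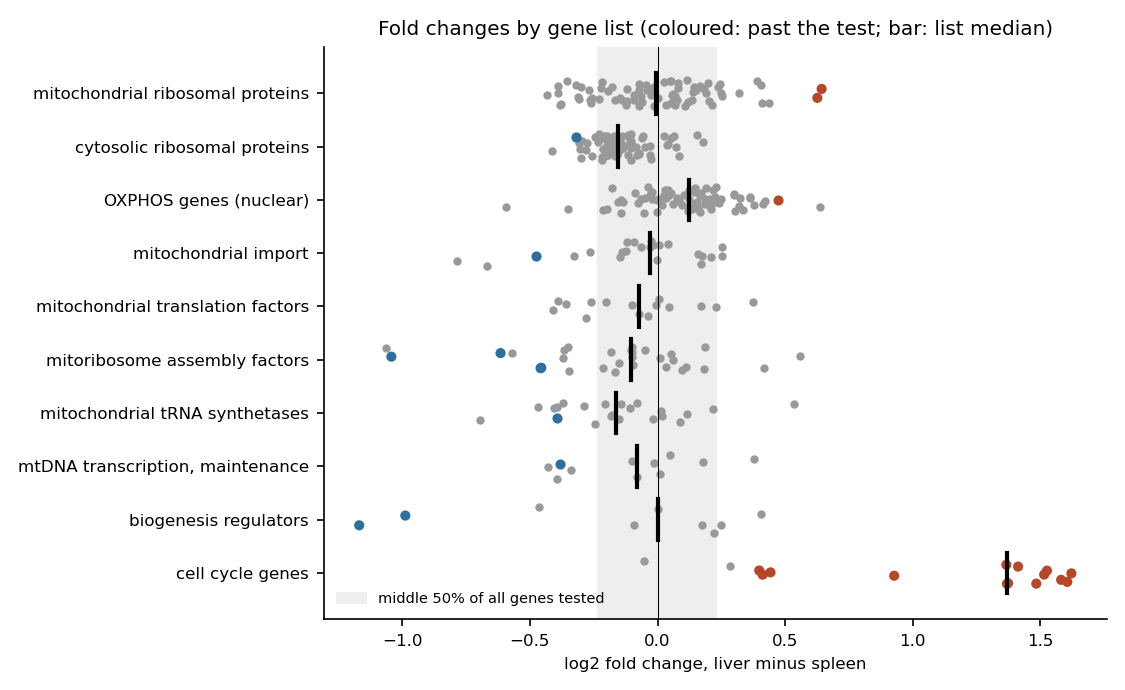
Log2 fold change, liver minus spleen (horizontal axis), of each gene in 10 lists (vertical axis); coloured points passed the test, black bars are list medians and the grey band holds the middle 50% of all genes tested. The mitochondrial ribosomal proteins centre on 0 with 2 coloured points, while the cell cycle genes lie to the right.

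Short motifs of known regulators were searched in the promoters of the mitochondrial ribosomal protein genes. Over 73 windows of the 67 genes, each from 250 bases before to 50 after a start site and read on both strands, the ETS motif CCGGAAG was in 24, or 32.9%, against 18.0% of 11219 windows of genes tested here and 8.86% of all 32851 windows. The YY1 motif AAGATGGC was in 12, or 16.4%, against 4.58% and 2.75%. The NRF1 motif was in 3 windows, those of Mrpl9, Mrpl32 and Mrpl39, or 4.11% against 2.21% and 0.971%. The E-box CACGTG, the site of Myc, was in 9.59% of the windows against 10.1% and 7.15%, and TATAAA in 6.85% against 6.98% and 13.6%. No matches of different motifs overlapped in the 73 windows. A stretch of 40 bases soon after the start site was found in an annotated (GENCODE) transcript of the same gene for 47 of the 73 windows. Positions and distances counted from a start site are less sure in the others. In the stretches printed above, the ETS letters begin 37 bases before the start site of Mrpl34, 26 before that of Mrps18a and 11 before that of Mrps22, and the NRF1 letters 28 before that of Mrpl9. The fold changes of genes with and without a motif overlapped: the 24 genes with the ETS motif had a median log2 fold change of 0.059 and the 43 without it -0.046, and for the YY1 motif the medians were -0.027 in 12 genes and 0.00032 in 55. A match is a run of letters and not a site shown to be bound.

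Some of the genes stood head to head with another gene. Of the 67 genes, 25 (37.3%) had the start site of a gene on the other strand within 1000 bases upstream, against 20.1% of 8800 tested genes with a window. Mrpl46 and Mrps11 were such a pair, 42 bases apart, at log2 fold changes of 0.081 ± 0.19 and -0.26 ± 0.21. Of the 24 partners tested, 4 passed, beside 16.2% of all genes tested. None of their 4 neighbours among the mitochondrial ribosomal protein genes passed, beside 2.63% of the 76. The pairs named here were picked with their values known, and the difference within a pair was not tested. Eme1, a subunit of a DNA repair nuclease, had a log2 fold change of 1.41 (edgeR adjusted p = 0.00177) and its neighbour Mrpl27 one of 0.25 ± 0.18. The condensin gene Ncapd2 was at 1.08 (edgeR adjusted p = 1.65e-06) and Mrpl51 at 0.20 ± 0.20. Gga3, an adaptor of Golgi transport, was at -0.60 (edgeR adjusted p = 0.00332) and Mrps7 at 0.17 ± 0.17, and 2610507I01Rik was at -0.70 (edgeR adjusted p = 0.0341) and Mrpl55 at -0.072 ± 0.29. Tmem63b, 131 bases from Mrpl14, was at -0.34 (edgeR adjusted p = 0.196), opposite in sign to Mrpl14.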

How the data were processed

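RNA of CD4+GFP+ Treg cells was sequenced in 3 liver and 3 spleen libraries, numbered within a tissue in accession order. The authors deposited raw read counts per gene symbol. HISAT2 2.1, HTSeq 0.11 and the build mm9 are named in the submitters' processing notes; for the annotation and the strand setting the sources used here give nothing, so reads of overlapping or antisense genes, and of near-identical gene copies, are uncertain. The 5 HTSeq summary rows, 25.5% to 29.0% of the counts of a library, were left out.

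Counts were fitted over all genes in R 4.3.3 with edgeR 4.0.16: filterByExpr, TMM scaling, quasi-likelihood F test of liver minus spleen, Benjamini-Hochberg adjustment, threshold 0.05. SEs and 95% intervals follow from the F statistic. Levels are TMM-scaled CPM. Transcript lengths are from GENCODE M21 (GRCm38). On counts simulated at the levels of these genes, over 11574 genes, the test recovered 4 of 50 genes at 1.25-fold and 20 of 50 at 1.5-fold. It recovered 45 of 50 at 2-fold and 50 of 50 at 4-fold, with 5 false calls among 124. Far fewer genes were changed there than passed in the real comparison of liver against spleen. The simulated spread of a gene followed the trend with level, without variation of its own. How this alters the shares recovered was not tested.

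The genes and lists were chosen with earlier results of these data known, and so were the subunit and origin classes, assigned from general knowledge. Named genes were those past the test, the 8 smallest p in each direction, the 5 highest and lowest levels per kilobase, genes without overlap (size 0.3 or more on the log2 scale, 10 CPM or more in both tissues), fixed genes of interest, and the 3 smallest p and up to 5 calls of each list. A gene that this rule names is not reported here. Others were chosen after their values were seen. No mitochondrial DNA-encoded gene was analysed here. Alternatives were DESeq2 1.42.0 size factors and Wald test, upper-quartile scaling, limma 3.58.1 voom with quality weights, no filter, a filter of 5 CPM in 3 libraries, each library left out, and thinning to 1199410 counts.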

Additional observations from a re-analysis of the deposited data

How the results depend on the processing

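The mitochondrial ribosomal protein genes had medians of -0.081 to 0.051 and log2 ratios of summed CPM of -0.089 to 0.054 over the main and alternative settings. The number higher in liver was 1 with upper-quartile scaling, 0 at equal depth and 0 to 2 with a library left out (0 without spleen 3); the number higher in spleen was 1 with limma-voom. Mrpl54 passed in 11 of 13 alternatives and Mrpl14 in 7. Thinning and the shallow library spleen 1 limit what can be seen: 74 of the 76 were tested at equal depth. Over all genes, upper-quartile scaling gave 954 higher in liver and 1014 higher in spleen, against 1087 and 808, and limma-voom 1521 and 1243. Without spleen 2 the counts over all genes were 722 and 486. No paired analysis was run, because the labels do not say which liver and spleen libraries came from the same animals.

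Of the companion lists, subunit genes named otherwise, Oxa1l included, had 1 higher in spleen with upper-quartile scaling or limma-voom and 0 to 1 with a library left out; their median, -0.20, was -0.069 with limma-voom, -0.39 at equal depth and -0.21 to -0.023 with a library left out. Translation factors had 1 higher in spleen with limma-voom or no filter. Assembly factors, Mdn1 included, had 1 higher in spleen at equal depth and 1 to 5 with a library left out, with medians of -0.15 with upper-quartile scaling and -0.15 to -0.11 with a library left out. The list of synthetase genes, amidotransferase subunits included, had 2 higher in spleen with DESeq2 size factors, upper-quartile scaling, the DESeq2 Wald test or the 5 CPM filter, 3 with limma-voom and 0 to 1 with a library left out, with medians of -0.21 with upper-quartile scaling and -0.19 to -0.10 with a library left out. Transcription and maintenance genes had 0 with no filter or at equal depth and 0 to 1 with a library left out. Biogenesis regulators had 2 higher in liver with limma-voom and 1 with no filter or the 5 CPM filter. Oxidative phosphorylation genes had 3 higher in liver with limma-voom, 5 with no filter, 0 at equal depth and 0 to 3 with a library left out. Cytosolic ribosomal protein genes had 3 higher in spleen with upper-quartile scaling, 2 with limma-voom, 6 with no filter and 0 to 1 with a library left out. Import genes had 2 with limma-voom and 0 to 1 with a library left out, and their median was -0.13 at equal depth and -0.099 to 0.0052 with a library left out. The cause was not tested in any of these.

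Among the named genes 25 of 817 alternative values changed sign, all in genes that passed under no setting. With a library left out the log2 fold change was -0.33 to 0.21 for Mrpl52, -0.028 to 0.37 for Mrpl33, -0.33 to 0.045 for Mrpl35, -0.18 to 0.35 for Mrps25, -0.093 to 0.13 for Mrps30, -0.056 to 0.21 for Mrpl11, -0.20 to 0.039 for Tfam, -0.068 to 0.061 for Yy1 and -0.092 to 0.14 for Dap3. With limma-voom it was 0.010 for Mrpl52, 0.042 for Yy1 and -0.055 for Dap3; with upper-quartile scaling -0.011 for Mrps30 and -0.019 for Dap3; with no filter 0.010 for Yy1; and at equal depth -0.29 for Mrps25, -0.25 for Mrps30, -0.085 for Mrpl11 and -0.0092 for Oxa1l.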

Other observations

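The shallow library spleen 1 stood apart in both directions within the mitochondrial ribosomal protein genes. It was the highest of the 6 libraries for 35 of the 76 genes and the lowest for 17, and the standard deviation of its log2 deviations from the gene means was 0.47, against 0.19 to 0.23 in the other libraries. Liver 3, a deep library, was the highest for 24 genes and the lowest for 4, and its median deviation was 0.15, close to the 0.16 of spleen 1, while the other 4 libraries lay between -0.086 and -0.0016. The median coefficient of variation over the 76 genes was 13.1% in liver and 17.8% in spleen, or 9.17% between spleen 2 and spleen 3. A value from 2 libraries is not like for like with values from 3.

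Fold changes were set against transcript length. Pearson's r of the log2 fold change with log2 length was -0.11 over the 76 genes (Spearman's rho -0.081), and -0.056 (rho -0.076) over 11291 genes tested with a length, which share the same libraries. Without spleen 1 these were -0.19 (rho -0.17) over the 76 genes and -0.078 (rho -0.11) over 11602 genes. The 38 shorter transcripts, up to 1219 bases, had a median of -0.029 and the 38 longer ones a median of 0.031.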
